A study of Bos taurus with 10 samples.

Results

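Ribosome biogenesis was followed through 97 probe sets of 60 genes, out of 24016 probe sets tested, in *in vitro* matured (IVM) and immature bovine oocytes. The members were matched by gene symbol: subunits and factors of RNA polymerase I, the *NOP*, *NOL*, *UTP*, *RRP*, *TSR* and *GNL* families, and single genes such as *FBL*, *NCL*, *DKC1*, *BYSL*, *LYAR*, *PUM3* and *EBNA1BP2*. Of 79 symbols listed by role, 59 were found on the array, and *RRP7* matched the rule besides. The probe sets of *NOL3* and *GNL1* match by symbol, although these genes are not known chiefly for making ribosomes.

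RNA polymerase I transcribes the long precursor of ribosomal RNA in the nucleolus, where the small subunit processome, guide particles of the box C/D and box H/ACA classes and a chain of assembly factors cut, modify and fold it around ribosomal proteins. Growing oocytes build large stores of ribosomes and of maternal mRNA. When meiosis resumes, the germinal vesicle breaks down and the nucleolus disperses. Reports on transcription after this point conflict, and the paper on these oocytes proposes that some still takes place in cattle. The stability of stored mRNA and the length of its poly(A) tail can also bear on the values, which was not tested.

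The design held 5 IVM pools (replicates 1 to 5) and 5 immature pools (replicates 1 to 5) each hybridized to 1 Affymetrix Bovine Genome array and each representing 1 day of ovary collection. Oocytes came from follicles of 3 to 8 mm of slaughtered cattle, and pools held 100 denuded oocytes kept in tubes of 10. IVM oocytes were denuded after 24 h in medium with 10% serum and 10 ng/ml of EGF at 39°C under 5% CO2, and immature oocytes at time 0 h, without culture. The labels give no breed, age or genetic alteration, and the pools are mixtures of oocytes from several ovaries. From every pool 100 ng of total RNA was amplified in a pair of rounds primed at the poly(A) tail, so the values are levels relative to the RNA put in. In pools of this kind a lower level per oocyte and a changed share of RNA from other cells cannot be told apart.

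All values below are log2 values as deposited, and differences are IVM minus immature with the standard error (SE). Probe sets are comparable between arrays but not with each other. A probe set was called at an adjusted p under 0.0001 (limma, Benjamini-Hochberg over the 24016 probe sets). The summary method returns almost the same value on every array where the probes of a set share no signal, and a probe set was taken as varying where its 10 values spanned at least 0.01. Array medians ran from 7.04 to 7.10, and 5 arrays a group limit the precision. Poly-A control transcripts, added before amplification, averaged 8.17 ± 0.22 on the IVM arrays and 7.12 ± 0.17 on the immature arrays (SD, n = 5 each), a difference of 1.05 (SE 0.12, two-sided exact permutation p = 0.00794, which is the lowest that 5 against 5 arrays can give). Hybridization controls lay between 10.75 and 11.22 on the IVM arrays and on immature replicates 4 and 5, and between 9.38 and 9.73 on immature replicates 1, 2 and 3. The signal of ef1a at the 5′ end minus that at the 3′ end was -1.33 ± 0.55 on IVM arrays and 1.14 ± 0.41 on immature arrays (exact permutation test, two-sided, p = 0.00794), and the same measure of gapd was -3.16 ± 0.43 on IVM arrays and -3.10 ± 0.26 on immature arrays (exact permutation test, two-sided, p = 0.802; SD, n = 5 each). Among cell type markers, 10 varying oocyte genes had a mean of 9.74 to 11.08 on the IVM arrays and 12.28 to 12.76 on the immature arrays. Of these, 3 were higher and 7 lower in IVM oocytes (median difference -1.90), with 3 called lower. For 13 varying cumulus and granulosa genes the ranges were 8.66 to 10.75 on IVM arrays and 6.94 to 8.68 on immature arrays. The 2 ranges overlapped only between 8.66 and 8.68. By gene these markers were split, with 7 higher and 6 lower, a median difference of 0.18 and 1 called higher. For 7 genes of other somatic cells the ranges were 8.54 to 10.40 on IVM arrays and 7.59 to 8.67 on immature arrays. Of these, 6 were higher and 1 lower, with 0 called, and none of the 9 blood cell genes found varied. The part of the controls and of these markers in the results below was not tested.

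After maturation, 19 probe sets of 15 ribosome biogenesis genes fell, and 0 rose. Of the 19, 7 belonged to large subunit assembly, 4 to RNA polymerase I, 4 to the small subunit processome, 3 to late maturation of the small subunit and 1 to the guide particles. The 19 made up 19.6% of the 97 probe sets, where 4.81% of all 24016 were called lower and 0.974% higher, and of the 13292 with a single symbol, as the members have, 6.99% were lower and 1.04% higher. Of the 97 probe sets, 54 varied, of 44 genes, which was 55.7% against 39.4% of all probe sets, and among all varying probe sets 12.1% were called lower. The median difference of the 54 was -1.03, against 0.18 over all 9460 varying probe sets. Of the 54 differences, 42 were negative and 12 positive, and 11 of the 12 were smaller than the 1.05 by which centring on the poly-A controls lowers every difference, as were 69.9% of the positive differences of all varying probe sets. In 39 of the 54 every IVM array lay below every immature array (29.3% of all varying probe sets, 11.5% of all tested) and in 4 every IVM array lay above (27% of all varying, 10.6% of all tested). The same 39 and 4 varying probe sets stood below an adjusted p of 0.05 (limma), where 31.7% of all varying probe sets were lower and 34% higher (12.5% and 13.4% of all tested). The distribution of all differences and the members' values by role are plotted.

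**Figure D1:**
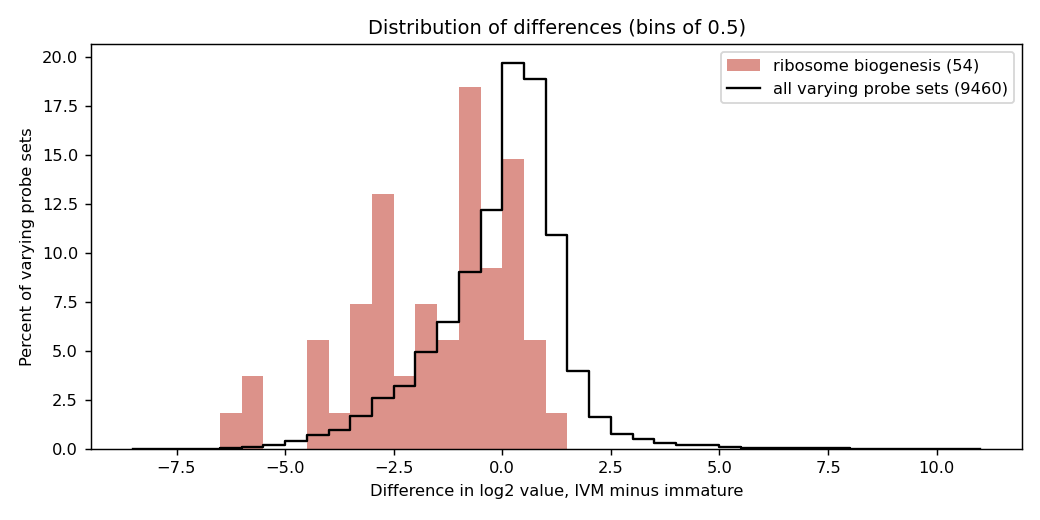
Distribution of the difference in log2 value, IVM minus immature (horizontal axis, bins of 0.5), as percent of varying probe sets (vertical axis), for 54 ribosome biogenesis probe sets (filled bars) and all 9460 varying probe sets (black line). The filled bars lie mostly to the left of 0, with a median of -1.03 against 0.18.

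**Figure D2:**
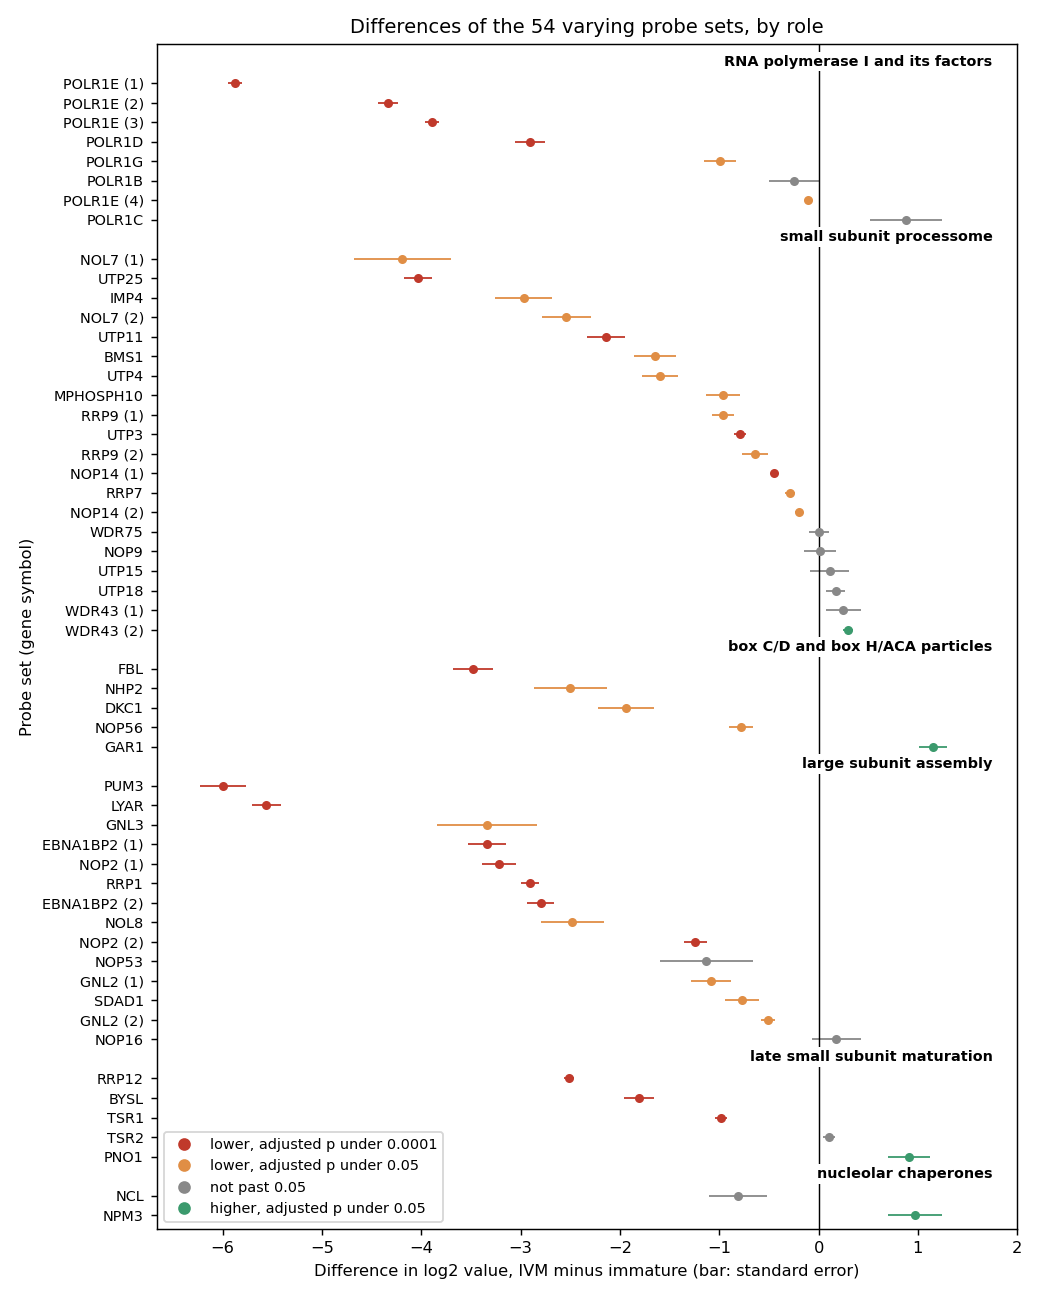
Difference in log2 value, IVM minus immature, of the 54 varying probe sets by role (bars, standard error; several probe sets of a gene are numbered in order of the difference). Red points passed an adjusted p of 0.0001, orange and green points 0.05 as lower or higher, and grey points did not pass; 19 points are red, and the largest fall is that of *PUM3* at -6.00.

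The calls depended on the fit used. All 19 differences stayed negative under every alternative run, which is no added support, since the 19 were selected as clearly lower in the same data. Among all 54 varying members, centring on the poly-A controls reversed the sign of 11, and leaving out a single array reversed up to 2. Of the calls, 14 held without any 1 array, and the second probe set of *NOP2* and those of *BYSL*, *UTP11*, *UTP3* and *NOP14* lost theirs without at least 1. With the replicate number as a block, taken as the collection day, and all probe sets tested, none of the 19 passed (adjusted p 2.00e-04 to 0.00632, limma). The same was true of all probe sets on the array (0%). With the block over varying probe sets alone 14 passed as lower and 0 as higher, where 9.83% and 1.82% of the varying probe sets did. Without the block over varying probe sets alone 27 passed as lower and 1 as higher (17.8% and 7.24% of varying probe sets). Against immature replicates 4 and 5 alone, the immature arrays whose hybridization controls lay with those of the IVM arrays (a comparison added after seeing the data), 1 of the 97 was called lower (0.0167% of all), and over varying probe sets 10 were lower and 0 higher (3.97% and 0.0423%).

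RNA polymerase I was represented by 15 probe sets of 8 genes, of which 8 varied and 4 fell. *POLR1E*, which encodes a subunit needed for initiation and elongation on ribosomal DNA (the counterpart of yeast Rpa49), had the most marked fall in this group, and 3 of its 4 probe sets agreed. The probe set with the highest immature level read 6.78, 7.01, 6.84, 6.96 and 6.98 on IVM arrays 1 to 5, against 12.86, 12.79, 12.60, 12.79 and 12.94 on immature arrays 1 to 5. All IVM arrays were within a narrow band far below the immature ones, and the difference was -5.88 (SE 0.07, adjusted p = 4.55e-09, 0.000200 with the block). The second probe set read 6.16, 6.44, 6.46, 6.36 and 6.57 in IVM oocytes, against 10.86, 10.79, 10.51, 10.67 and 10.88 in immature oocytes (difference -4.34, SE 0.10, adjusted p = 5.82e-08). The third read 6.47, 6.55, 6.58, 6.43 and 6.60 in IVM oocytes, against 10.45, 10.41, 10.26, 10.34 and 10.64 in immature oocytes (difference -3.89, SE 0.07, adjusted p = 2.68e-08). In each of the 3 the groups were separated by many times the spread within them. The fourth hardly moved, with values between 6.92 and 7.04 in IVM and between 7.06 and 7.15 in immature oocytes (difference -0.11, SE 0.03, adjusted p = 0.0182), although its arrays did not overlap.

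*POLR1D*, a small subunit shared by RNA polymerases I and III, fell by 2.91 (SE 0.15, adjusted p = 2.50e-06). It read 8.95, 9.36, 9.22, 9.29 and 8.90 on the IVM arrays, against 12.33, 11.89, 12.33, 11.80 and 11.92 on the immature arrays. No IVM array came near the immature ones. Its partner in both enzymes, *POLR1C*, had the opposite sign with overlapping groups, at 8.01 ± 0.67 in IVM and 7.13 ± 0.44 in immature oocytes (SD, n = 5 each; difference 0.88, SE 0.36, adjusted p = 0.106). *POLR1B*, the second-largest subunit, was at 10.16 ± 0.40 in IVM and 10.41 ± 0.42 in immature oocytes (SD, n = 5 each; difference -0.25, SE 0.25, adjusted p = 0.548), with overlapping groups. *POLR1G*, the counterpart of yeast Rpa34 and the partner of *POLR1E*, was at 6.88 ± 0.19 in IVM and 7.86 ± 0.31 in immature oocytes, with no overlap (difference -0.99, SE 0.16, adjusted p = 0.00214). The probe sets of *POLR1F*, *POLR1H* and *RRN3*, an initiation factor, did not vary.

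The small subunit processome, which folds and cleaves the precursor of 18S rRNA, was the largest group, with 37 probe sets of 22 genes. Of these, 20 varied and 4 fell, those of *UTP25*, *UTP11*, *UTP3* and *NOP14*, while 14 of the 20 were lower at an adjusted p under 0.05. *UTP25*, a helicase-like protein of the processome in yeast, read 7.50, 7.67, 7.30, 8.08 and 7.62 on the IVM arrays, against 11.58, 11.87, 11.59, 11.56 and 11.70 on the immature arrays. The groups stood far apart, with a difference of -4.03 (SE 0.14, adjusted p = 3.25e-07). *UTP11* read 7.07, 7.39, 7.11, 7.87 and 7.03 in IVM oocytes, against 9.32, 9.67, 9.71, 9.22 and 9.27 in immature oocytes (difference -2.14, SE 0.19, adjusted p = 5.71e-05). Its call was lost when any array but IVM replicate 4 was left out, with an adjusted p of up to 3.08e-04. Only 1 of the 4 *UTP11* probe sets varied.

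*UTP3* remained abundant on its own scale, with 9.98 ± 0.11 in IVM and 10.77 ± 0.08 in immature oocytes (SD, n = 5 each; difference -0.79, SE 0.06, adjusted p = 3.08e-05). Its call was lost without IVM replicate 1 or 2 or any 1 immature array (adjusted p up to 2.10e-04). *NOP14*, a core factor of the processome, fell least of the 15 genes, at 6.99 ± 0.07 in IVM and 7.44 ± 0.03 in immature oocytes (difference -0.45, SE 0.03, adjusted p = 1.69e-05). The call of *NOP14* was lost without immature replicate 1, 2, 4 or 5 (adjusted p up to 1.27e-04), and its other varying probe set differed by -0.20 (adjusted p = 0.00369).

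Other processome genes had wide separations between the groups that did not pass, with more scatter on the IVM arrays. *NOL7*, a processome protein described in human cells, read 5.60, 7.26, 6.14, 7.67 and 5.24 on the IVM arrays, against 10.39, 10.62, 10.40, 10.34 and 11.11 on the immature arrays (difference -4.19, SE 0.49, adjusted p = 3.03e-04). A second *NOL7* probe set read 5.96, 6.71, 6.13, 6.94 and 5.88 in IVM oocytes, against 8.72, 9.05, 8.80, 8.51 and 9.23 in immature oocytes (difference -2.54, SE 0.25, adjusted p = 1.02e-04). In both the IVM replicates 2 and 4 were the highest of their group and still lay below every immature array. *IMP4*, of the Mpp10 complex that bridges the U3 guide RNA and the precursor, read 7.31, 8.05, 7.33, 8.70 and 7.26 in IVM oocytes, against 10.78, 10.53, 10.76, 10.85 and 10.58 in immature oocytes (difference -2.97, SE 0.29, adjusted p = 1.03e-04). IVM replicate 4 was again the highest, and without it *IMP4*, the second *NOL7* probe set and *BMS1* passed (lowest adjusted p 1.32e-05, 8.20e-05 and 2.35e-05). *BMS1*, a GTPase of the processome, was at 7.76 ± 0.43 in IVM and 9.41 ± 0.17 in immature oocytes (difference -1.65, SE 0.21, adjusted p = 4.64e-04).

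Proteins that bind the precursor as it is transcribed did not share one pattern. *UTP4* was at 7.65 ± 0.33 in IVM and 9.25 ± 0.25 in immature oocytes, with no overlap (SD, n = 5 each; difference -1.60, SE 0.18, adjusted p = 2.78e-04). *WDR75* and *UTP15*, of the same subcomplex, were level, at 11.25 ± 0.18 in IVM and 11.25 ± 0.13 in immature oocytes for *WDR75* (SE of the difference 0.10) and at 9.70 ± 0.35 in IVM and 9.60 ± 0.29 in immature oocytes for *UTP15* (difference 0.11, SE 0.20, adjusted p = 0.782). *WDR43*, also of that subcomplex, had differences of 0.30 and 0.25 in a pair of probe sets (adjusted p = 0.0021 and 0.372). *UTP18*, of another subcomplex, differed by 0.17 (SE 0.10), and *NOP9* by 0.01 (SE 0.16). *MPHOSPH10*, the partner of *IMP4*, differed by -0.96 (adjusted p = 0.00319), *RRP9*, which binds the U3 RNA, by -0.96 and -0.64 in its probe sets (adjusted p = 2.98e-04 and 0.00596), and *RRP7* by -0.29 (adjusted p = 0.00227). None of the probe sets of *IMP3*, *NOL6*, *NOL10*, *NOL11*, *RRP36* and *UTP6* varied.

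**Figure D3:**
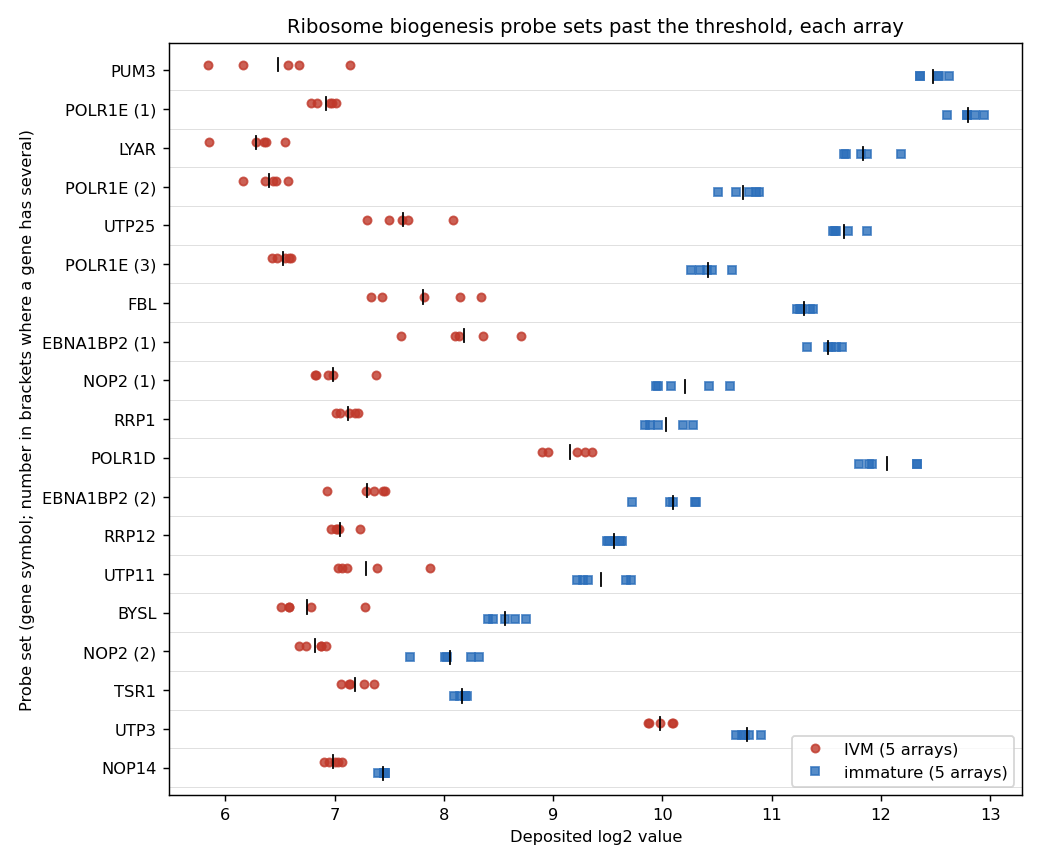
Deposited log2 value (horizontal axis) on each of 5 IVM arrays (red circles) and 5 immature arrays (blue squares) for the 19 probe sets that fell (black ticks, group means), ordered by the difference. In no probe set do the groups overlap, and the means over the 19 lie between 7.12 and 7.42 on the IVM arrays and between 10.28 and 10.48 on the immature arrays.

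Guide particles that modify rRNA were split by gene. *FBL* encodes fibrillarin, the 2′-O-methyltransferase of box C/D particles, and was the one gene of this group to fall (1 of 10 probe sets, 5 of which varied). It read 7.33, 8.15, 7.82, 8.34 and 7.43 on the IVM arrays, against 11.23, 11.27, 11.26, 11.38 and 11.35 on the immature arrays. The immature arrays were nearly equal and the IVM arrays lay more than their own range below them (difference -3.48, SE 0.20, adjusted p = 4.56e-06). *NOP56*, another core protein of box C/D particles, was at 8.80 ± 0.26 in IVM and 9.57 ± 0.08 in immature oocytes, with no overlap (SD, n = 5 each; difference -0.78, SE 0.12, adjusted p = 0.00172).

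Among the core proteins of box H/ACA particles, which guide pseudouridylation, *NHP2* read 7.03, 8.18, 7.72, 8.85 and 6.88 in IVM oocytes, against 10.20, 10.26, 10.02, 10.39 and 10.32 in immature oocytes (difference -2.50, SE 0.37, adjusted p = 0.00113). *DKC1*, the pseudouridine synthase, was at 9.01 ± 0.58 in IVM and 10.95 ± 0.23 in immature oocytes (SD, n = 5 each; difference -1.94, SE 0.28, adjusted p = 0.0010). Both were lower on every IVM array without passing the threshold. *GAR1*, of the same particle, lay the other way, at 10.76, 11.08, 10.80, 10.47 and 10.87 on the IVM arrays, against 9.49, 9.55, 9.49, 9.62 and 10.05 on the immature arrays (difference 1.15, SE 0.14, adjusted p = 4.40e-04). It was the largest positive difference among the members, it passed only where varying probe sets alone were tested (adjusted p = 5.13e-05), and centring on the poly-A controls brought it to 0.10. *NOP10* and *NAF1* did not vary.

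Large subunit assembly held the most calls, with 7 of 21 probe sets lower, of 5 genes, and 14 varying. *PUM3*, a Puf-family RNA-binding protein whose yeast counterpart is a nucleolar assembly factor, had the largest difference of all members. It read 5.84, 6.57, 6.67, 7.14 and 6.16 on the IVM arrays, against 12.36, 12.62, 12.53, 12.36 and 12.52 on the immature arrays. High and even levels in immature oocytes thus stood against low and more scattered ones in IVM oocytes (difference -6.00, SE 0.23, adjusted p = 5.15e-07, 7.57e-04 with the block). *LYAR*, a nucleolar zinc finger protein of precursor rRNA processing, was next in this group. It read 5.85, 6.35, 6.55, 6.28 and 6.37 in IVM oocytes, against 11.68, 12.18, 11.66, 11.82 and 11.87 in immature oocytes (difference -5.56, SE 0.15, adjusted p = 9.90e-08). No IVM array of *LYAR* came within the range of the immature arrays.

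*EBNA1BP2*, the counterpart of yeast Ebp2, fell in both of its varying probe sets. The first read 7.61, 8.36, 8.14, 8.71 and 8.10 on the IVM arrays, against 11.52, 11.64, 11.59, 11.32 and 11.54 on the immature arrays (difference -3.34, SE 0.19, adjusted p = 4.31e-06). The second read 6.93, 7.36, 7.46, 7.29 and 7.44 in IVM oocytes, against 10.07, 10.31, 10.10, 9.72 and 10.30 in immature oocytes (difference -2.80, SE 0.14, adjusted p = 2.62e-06). Its other 2 probe sets did not vary. *NOP2*, a methyltransferase of the large subunit rRNA, fell in both varying probe sets as well. One read 6.83, 6.94, 6.99, 6.82 and 7.38 in IVM oocytes, against 9.96, 10.43, 9.94, 10.08 and 10.62 in immature oocytes (difference -3.22, SE 0.17, adjusted p = 3.11e-06). The other had means of 6.82 ± 0.11 in IVM and 8.06 ± 0.25 in immature oocytes (SD, n = 5 each; difference -1.24, SE 0.12, adjusted p = 9.69e-05), the value nearest to the threshold on its inner side. It lost the call without any array but immature replicate 3 (adjusted p up to 5.33e-04).

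*RRP1*, needed for processing of the large subunit precursor in yeast, read 7.13, 7.01, 7.19, 7.05 and 7.21 on the IVM arrays, against 10.19, 10.28, 9.96, 9.84 and 9.89 on the immature arrays. The difference was -2.91 (SE 0.09, adjusted p = 2.16e-07), with tight groups on both sides. *GNL3*, which encodes the GTPase nucleostemin, had a larger mean difference and no call, with 5.99, 7.06, 7.01, 8.61 and 5.82 in IVM oocytes, against 10.09, 10.42, 10.50, 10.14 and 10.02 in immature oocytes (difference -3.34, SE 0.50, adjusted p = 0.00129). IVM replicate 4 stood well above the other IVM arrays, and without it *GNL3* passed (adjusted p = 8.58e-05). *NOL8* read 6.67, 6.97, 6.37, 7.41 and 6.22 in IVM oocytes, against 8.77, 9.71, 9.83, 8.77 and 8.95 in immature oocytes (difference -2.48, SE 0.32, adjusted p = 5.02e-04), with scatter on both sides and no overlap.

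The remaining large subunit factors had smaller differences. *GNL2*, a GTPase of late nuclear assembly, differed by -1.08 and -0.51 in its probe sets (adjusted p = 0.00351 and 5.45e-04), and *SDAD1*, the counterpart of yeast Sda1, by -0.77 (adjusted p = 0.0095). *NOP53* was at 8.39 ± 1.01 in IVM and 9.52 ± 0.35 in immature oocytes, with overlap (SD, n = 5 each; adjusted p = 0.116). *NOP16* was at 8.03 ± 0.50 in IVM and 7.85 ± 0.27 in immature oocytes (adjusted p = 0.688), and *PES1* and *RRP15* did not vary.

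In late maturation of the small subunit, 3 of 7 probe sets fell and 5 varied. *RRP12*, an export factor of pre-ribosomes in yeast, had the smallest standard error among the members that fell by at least 2. It read 7.02, 6.97, 7.01, 7.23 and 7.04 in IVM oocytes, against 9.51, 9.63, 9.49, 9.57 and 9.61 in immature oocytes (difference -2.51, SE 0.05, adjusted p = 4.70e-08). *BYSL*, bystin, which binds late small subunit precursors, was at 6.75 ± 0.31 in IVM and 8.56 ± 0.14 in immature oocytes (SD, n = 5 each; difference -1.81, SE 0.15, adjusted p = 4.58e-05). The call of *BYSL* was lost without any array but IVM replicate 5, the highest IVM array at 7.28 (adjusted p up to 2.94e-04). Only 1 of the 2 *BYSL* probe sets varied. *TSR1* was at 7.19 ± 0.12 in IVM and 8.17 ± 0.05 in immature oocytes (difference -0.98, SE 0.06, adjusted p = 5.64e-06), with no overlap. *PNO1*, the partner of the endonuclease *NOB1*, lay higher on each IVM array without passing, at 12.08 ± 0.44 in IVM and 11.18 ± 0.13 in immature oocytes (difference 0.91, SE 0.21, adjusted p = 0.0104), and its difference was -0.15 after centring on the poly-A controls. *TSR2* was level, at 9.03 ± 0.10 in IVM and 8.93 ± 0.10 in immature oocytes (adjusted p = 0.302), and *NOB1* did not vary.

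The nucleolar chaperones gave no call. *NCL*, nucleolin, was at 10.16 ± 0.57 in IVM and 10.97 ± 0.30 in immature oocytes (SD, n = 5 each; difference -0.81, SE 0.29, adjusted p = 0.0683), with overlapping arrays. *NPM3*, a nucleoplasmin-family protein, was at 9.25 ± 0.34 in IVM and 8.27 ± 0.51 in immature oocytes (difference 0.97, SE 0.27, adjusted p = 0.0274), and its difference was -0.08 after centring on the poly-A controls.

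Where several probe sets of a gene varied, they gave the same sign. Of the 60 genes, 24 had several probe sets, and only 8 had several that varied. In these 8 the differences were negative throughout in 7 and positive in *WDR43*. In size they could differ widely, as between -5.88 and -0.11 for *POLR1E* and between -3.22 and -1.24 for *NOP2*. The files do not state which part of a transcript a probe set covers, and genome positions were not used here.

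Most falls ended at levels common among probe sets that do not vary, where a difference cannot be read as an exact fold. Such levels are a rough guide and no measured floor, since probe sets are not comparable with each other. A probe set of *RRN3*, for example, averaged 10.69 in both groups without varying. In 16 of the 19 probe sets that fell the IVM mean was under 8.01, a level that few of the probe sets that do not vary exceed (their 95th percentile), and in 18 of the 19 the immature mean was above it. The exceptions on the IVM side were *POLR1D*, *EBNA1BP2* and *UTP3*, and the exception on the immature side was *NOP14*. The median of the probe sets that do not vary was lower, at 6.74, and only 4 of the 19 IVM means were under it. The spread within a group was larger in IVM than in immature oocytes in 37 of the 54 varying members (68.5%), against 77.7% of all varying probe sets.

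Further genes of the pathway, from a list of 114 symbols outside the rule, were counted in the same way. Of 82 genes found, with 118 probe sets, 80 of them varying, 22 probe sets of 22 genes fell (18.6%) and 0 rose. Of all probe sets tested, 4.81% were called lower and 0.974% higher, and of those with a single symbol 6.99% and 1.04%. *DIMT1*, the dimethyltransferase of 18S rRNA, was at 7.67 ± 0.26 in IVM and 12.37 ± 0.28 in immature oocytes (SD, n = 5 each; difference -4.71, adjusted p = 4.06e-07). Among other processome genes 6 of 29 probe sets fell, led by *NAT10*, the acetyltransferase of 18S rRNA (-3.75), *RCL1* (-3.33) and *ABT1* (-3.18), and a second probe set of *NAT10* differed by -0.62 without passing. Among other large subunit genes 10 of 46 fell, led by *PPAN* (-3.45), *EIF6*, which keeps free large subunits from joining (-3.16), and *ZNF622* (-2.96). Of the exosome and its cofactors 2 of 13 fell, *EXOSC1* (-3.30) and *EXOSC8* (-2.72), and of the genes that assemble guide particles 1 of 9, *NUFIP1* (-3.48). *TCOF1*, which encodes treacle, a factor of ribosomal DNA transcription, fell by 1.54. A probe set of *TAF1B*, of the promoter selectivity factor of RNA polymerase I, fell by 1.33. Its other varying probe sets differed by -0.69 and -0.14 without passing, with overlapping groups. Some of these genes, such as *DDX24* and *HEATR1*, had probe sets of opposite sign. *DDX24* fell by 2.30 in one probe set and differed by 2.08 in another (adjusted p = 1.50e-04), and *HEATR1* fell by 2.57 in one and differed by 0.61 in another (adjusted p = 0.0176).

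Cytosolic ribosomal protein genes, the building blocks that these factors assemble, had 1 of 94 probe sets called lower (1.06%) and 0 higher, with 74 varying and a median difference of -0.23 over those. Of 26 probe sets of RNA polymerase II and III subunits, 8 fell (30.8%) and 0 rose, with a median of -1.01 over 18 varying ones. The share called lower was 4.81% over all probe sets tested and 6.99% over those with a single symbol. The lists were not tested against each other, and their calls are set side by side as shares of each list.

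**Figure D4:**
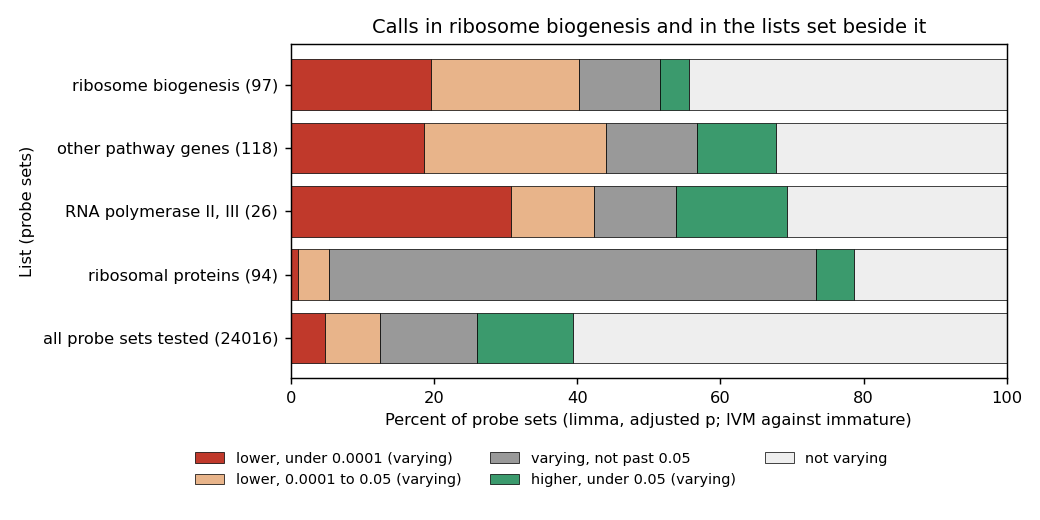
Percent of probe sets (horizontal axis) in each class of the limma comparison, for ribosome biogenesis (97 probe sets), other genes of the pathway (118), subunits of RNA polymerases II and III (26), cytosolic ribosomal proteins (94) and all probe sets tested (24016). The red share, lower at an adjusted p under 0.0001, is 19.6% for ribosome biogenesis and 18.6% for other genes of the pathway. It is 30.8% for RNA polymerases II and III and 1.06% for ribosomal proteins. Of all probe sets tested, 4.81% were lower at this threshold, counting also those that do not vary, which the red share leaves out.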

How the data were processed

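Total RNA of 5 IVM and 5 immature pools was hybridized to 10 arrays. The authors read the images in GCOS, quantile-normalized them and reduced each probe set by FARMS to the deposited log2 value per array; 0 columns of values were left unused. The 112 control probe sets were set apart. Symbols came from the platform's annotation, updated through RefSeq gene identifiers (13263 probe sets) or accessions (2), or kept (27); 86 probe sets with several symbols and 10638 without one were tested and not named. *RRP7* was placed with the processome under the name in the annotation.

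IVM and immature arrays were compared in R 4.3.3 with limma 3.58.1 (lmFit, eBayes), without a block, over 24016 probe sets, with Benjamini-Hochberg adjustment and the false discovery rate of the methods, 0.0001. The prior had 0.103 degrees of freedom, and 1.86 over varying probe sets alone. The script was tested on simulated data. The members, their roles and the gene lists were chosen with earlier results of these data known. Values on each array are given for the members past the threshold, up to the 12 largest falls and rises, and for up to 8 members in each direction whose groups do not overlap and differ by at least 2. From the other pathway lists up to 3 genes in each direction are named, and *DDX24* and *HEATR1* were added after their values were seen.

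The methods state that replicates are collection days, so equal numbers were taken as pairs. Across varying probe sets, same-numbered IVM and immature arrays deviated from their group means with r = 0.143, -0.347, 0.0872, 0.672 and 0.359, and the highest r with another number was 0.561, 0.484, 0.209, 0.357 and 0.628. Only replicate 4 had a higher r with its own number than with another, so the values bear out the pairing for that number alone. Alternatives were a threshold of 0.05, varying probe sets only, the block, 3 other scalings, genes in place of probe sets, and leaving out each array. Other software was matplotlib 3.10.9, scipy 1.17.1, numpy 2.4.6, pandas 2.3.3 and Python 3.11.15.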

Additional observations from a re-analysis of the deposited data

Results flagged for a closer look

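In 4 of 108 groups of 5 arrays of the varying members, 1 array lay far from the others by Dixon's ratio of the gap to the range, where chance gives about 1 in 20. For *NOP14* immature replicate 3 was the lowest (7.40, ratio 0.808), 0.05 from the next array. For *GAR1* immature replicate 5 was the highest (10.05, ratio 0.779), for *GNL2* immature replicate 4 was the lowest (9.06, ratio 0.759), and for *RRP12* IVM replicate 4 was the highest (7.23, ratio 0.731). No array was flagged in more than 1 of these groups, but the ratio does not show whether an array deviates across many probe sets. Leaving out IVM replicate 4 gave 1097 lower and 318 higher of all probe sets, the most for any single array. It was also the highest IVM array for several members that did not pass, such as *GNL3*, *IMP4* and *NOL7*.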

How the results depend on the processing

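At an adjusted p under 0.05, 46 members were lower and 4 higher, of which 7 lower ones did not vary by the limit used here, and 3602 and 3732 of all probe sets. With varying probe sets only, 1 member, *GAR1*, was called higher beside 27 lower, and 685 of all were higher. With the replicate block, 0 members and 0 probe sets of the array in either direction passed, and with the block over varying probe sets only, 14 members were lower. Centring on the poly-A controls moved every difference by -1.05 and called 86 members and 18943 of all probe sets lower; it turned *POLR1C* (-0.17), *NOP16* (-0.87), *PNO1* (-0.15), *TSR2* (-0.96), *NPM3* (-0.08), *NOP9* (-1.04), *UTP15* (-0.95), *UTP18* (-0.89), *WDR43* (-0.75 and -0.80) and *WDR75* (-1.05) negative. Centring on medians gave 382 higher probe sets and a second quantile normalization 396, which put *WDR75* at -0.01. Against immature replicates 4 and 5 alone, an alternative chosen after seeing the data, 1 member and 4 of all probe sets were lower and 0 higher, and over varying probe sets 10 members were lower, with 376 lower and 4 higher of all; the differences of the 19 were 0.912 to 1.09 times those of all arrays. Leaving out single arrays gave 14 to 21 lower members, 703 to 1097 lower and 77 to 318 higher of all, and differences of -0.06 to 0.14 for *NOP9* and -0.06 to 0.06 for *WDR75*. The cause of these changes was not tested. Restricting the fit to varying probe sets changed both the number tested and the prior degrees of freedom. The latter went from 0.103 to 1.86 without the block and from 0.103 to 2.07 with it. Counted as genes, 15 fell, against 14 by the brightest probe set of each gene and 16 by the mean of a gene's probe sets. Levels near the low end of the scale and 5 pools a group limit what can be told of small differences.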
